A study of Homo sapiens with 7 samples.

Results

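Of the 11020 places in the genome where p300 was called in Kasumi-1 cells, 624 (5.66%) lay apart from the AML1, AML1-ETO and N-CoR peaks and from H3K4me3. Each place was a window of 100 bp centred on the summit of a peak. A window was taken when it shared no base with any window of AML1, AML1-ETO or N-CoR and had no H3K4me3 summit within 1000 bp of its centre. The 624 windows were thus chosen by measured peak positions, and their distances to partners and to H3K4me3 are no finding. They are called p300-only windows here, a name that stands for the rule alone and says nothing of their distance from genes or from partners that lie beside them. The other p300 windows were 5079 that lacked AML1, AML1-ETO and N-CoR but lay near H3K4me3, 2493 that overlapped at least 1 of these partners away from H3K4me3 (partnered-away windows), and 2824 that overlapped a partner near H3K4me3.

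Kasumi-1 is an established leukaemia line with the t(8;21) translocation, which fuses AML1 (RUNX1) to ETO and leaves a normal AML1 allele beside the fusion. Untreated, growing cells were fixed, and chromatin was precipitated with 1 antibody each for AML1, the fusion AML1-ETO (through its ETO portion), N-CoR, p300 and H3K4me3, with 2 replicates per antibody pooled before peaks were called. The 5 lists held 70435 windows, with 19632 in the H3K4me3 list, 18087 in that of AML1-ETO, 11692 in that of AML1 and 10004 in that of N-CoR. As a check of the cell type, 7 of 8 genes that mark these cells (KIT, CD34, MPO, CD33, ANPEP, CD38 and PTPRC) had an H3K4me3 summit within 1000 bp of a start and HLA-DRA had none, while 2 of 10 genes of other cell types (CD8A and COL1A1) had one. The lists give positions only and hold neither read depth nor peak height, and the library depths stated by the study were not used here. With pooled replicates nothing could be compared over replicates. Windows are not replicates of a condition. Every interval below is a 95% interval (exact Clopper-Pearson for a share, Newcombe for a difference of shares) and covers counting error over windows only.

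p300 is an acetyltransferase and co-activator that does not read DNA sequence itself and is brought to DNA by transcription factors. It is found at promoters and at enhancers, the distal elements that raise transcription of a gene. H3K4me3 is the histone mark of the starts of active genes, AML1 is the Runt-domain factor of blood formation, and N-CoR is a co-repressor that recruits histone deacetylases. In myeloid cells, Myb, C/EBP, ETS factors such as PU.1, and AP-1 are among the factors that bring co-activators to enhancers, and CTCF marks insulators and the anchors of chromatin loops.

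The sequences shown first belong to 2 groups of p300-only windows that were linked by shared stretches of letters and that no other p300 window joined. Windows were linked when they shared at least 4 different runs of 14 letters on either strand, and groups of 3 or more linked windows are called letter families. All sequences are from hg19 (GRCh37), 5′ to 3′, and the capitals mark the run of 12 letters held by most windows of the family. The first 2 lines are from the largest family, at chr17:26022434-26022533 (minus strand) and chr6:33069106-33069205 (minus strand), named by the nearest protein-coding gene. Both lay outside genes, within 10 kb upstream of an annotated start.
LGALS9 window: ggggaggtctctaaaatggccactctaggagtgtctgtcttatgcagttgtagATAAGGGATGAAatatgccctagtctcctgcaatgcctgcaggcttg
HLA-DPB1 window: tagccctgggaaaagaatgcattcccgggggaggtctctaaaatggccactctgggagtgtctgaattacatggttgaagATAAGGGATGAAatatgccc

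The next 3 lines are from the second family, at chr7:97069076-97069175 (plus strand, intergenic), chr13:41722957-41723056 (minus strand, in an intron) and chr20:54607448-54607547 (plus strand, intergenic).
TAC1 window: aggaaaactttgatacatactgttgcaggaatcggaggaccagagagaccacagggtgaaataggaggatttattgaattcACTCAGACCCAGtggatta
KBTBD6 window: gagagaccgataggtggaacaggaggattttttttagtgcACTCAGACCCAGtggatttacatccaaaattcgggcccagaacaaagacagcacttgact
CBLN4 window: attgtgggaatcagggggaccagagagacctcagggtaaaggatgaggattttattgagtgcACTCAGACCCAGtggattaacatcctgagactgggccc

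The largest family held 15 windows on 10 chromosomes and the second held 13, also on 10 chromosomes. Together these 28 windows were 4.49% of the p300-only windows and lay on 14 chromosomes. In the largest family the 12 letters were held by 13 of 15 windows, and in the second by 7 of 13. The nearest protein-coding genes of the largest family were LGALS9, OR4K17, HLA-DPB1, DIAPH3, STAC, PLOD2, ENTPD1, PCDH7, ROBO1, ZC3H12C, CCN2 and GRB10, and its other 3 windows are not named here. Those of the second were ACAD9, SEMA6A, KCNJ15 (2 windows), TAC1, KBTBD6, CBLN4, RAPGEF2, IFTAP, PI4K2B, DYNC2H1, SEC23A and THEM4.

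Both families were found again when all 11020 p300 windows were linked whatever their class. That linking gave 139 letter families, and only 2 of them, these same 2, consisted wholly of p300-only windows. None of the 10396 other p300 windows joined either family. Among the 59415 windows of AML1, AML1-ETO, N-CoR and H3K4me3, 1 AML1-ETO window linked to the largest family and none to the second. The genome held 796 copies of the 12 letters of the largest family and 756 of those of the second, on both strands. Copies of unrelated runs of 12 letters were not counted, so these numbers do not show how repeated the families are. No annotation of repeated elements was used, so the families carry no element name here.

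The windows of these families lay far from everything else in the lists. The nearest H3K4me3 summit was at a median of 72589 bp for the largest family and 69140 bp for the second, compared with 11686 bp over all 624 windows. The nearest AML1, AML1-ETO or N-CoR summit was at a median of 32787 bp and 56359 bp, compared with 2873.5 bp. Only 2 of the 28 windows had a partner summit within 5000 bp, and 1 had an H3K4me3 summit within 10000 bp. Since the rule itself asks for distance from these marks, the values describe the families and are no test. All 15 windows of the largest family contained a run of 31 letters that occurs elsewhere in the genome, and 6 of 13 in the second did. How reads that match several places were treated is not given in the sources used here, and its part in these peaks was not tested.

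**Figure D1:**
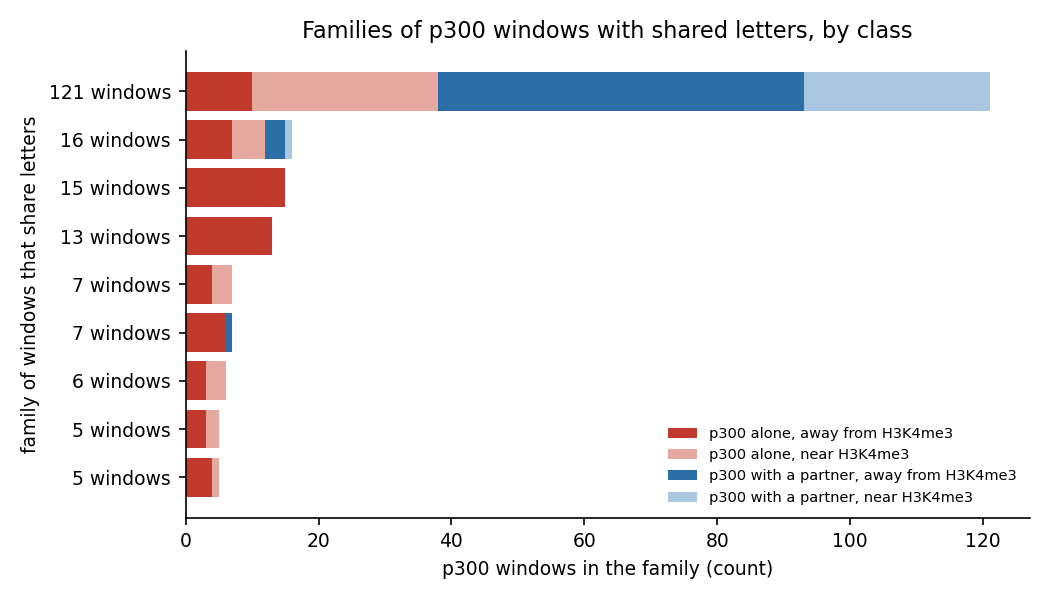
Number of p300 windows (horizontal axis) in each of the letter families that hold a family of p300-only windows, after linking all 11020 p300 windows, with colours for the 4 classes of p300 window (p300-only windows are "p300 alone, away from H3K4me3"). The families of 15 and 13 windows are made up wholly of p300-only windows, while the other 7, the largest with 121 windows, are mixed.

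The third family was confined to chromosome 19 and carried AP-1 and CTCF-like letters. Its 6 windows lay nearest to EBI3 (a subunit of interleukin-27), GNA15 (a G protein subunit of blood cells), TNFAIP8L1, SEMA6B, PLIN5 and SMIM44. An AP-1 consensus was found in 5 of the 6 and a CTCF-like one in 3. When all p300 windows were linked, 1 partnered-away window joined them. Below are the windows at chr19:4233531-4233630 (553 bp from a start), chr19:3146741-3146840 and chr19:4567718-4567817 (both in introns), all on the plus strand, with the 12 letters held by 4 of the 6 in capitals. The letters tgagtca that follow in all 3 lines are an AP-1 consensus.
EBI3 window: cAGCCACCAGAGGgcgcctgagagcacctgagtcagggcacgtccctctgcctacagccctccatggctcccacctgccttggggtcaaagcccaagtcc
GNA15 window: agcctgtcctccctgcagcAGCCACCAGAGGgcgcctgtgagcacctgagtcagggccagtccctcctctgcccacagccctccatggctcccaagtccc
SEMA6B window: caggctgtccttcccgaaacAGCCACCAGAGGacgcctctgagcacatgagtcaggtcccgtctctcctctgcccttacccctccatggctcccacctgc

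A small family of 3 windows had letters of transfer RNA genes. Its members were 1 window at DPP9 and 2 near TRIM41, a ubiquitin ligase gene, and all 3 lay within 1000 bp of a start. Read on the opposite strand, the capitals below and the letters before them are the beginning of a valine tRNA gene, and no annotation of tRNA genes was used. The windows shown are chr19:4724677-4724776 and chr5:180645304-180645403, both plus strand. The letters GGTTCGA, the core of the internal promoter of tRNA genes, occurred on either strand within 100 bp of the summit in 5 p300-only windows (0.801%, interval 0.261 to 1.86%), these 3 and 1 each at AGBL5 and HJV. The share was 1.04% over all p300 windows, which lies within that interval, and 1.48% among the windows alone near H3K4me3.
DPP9 window: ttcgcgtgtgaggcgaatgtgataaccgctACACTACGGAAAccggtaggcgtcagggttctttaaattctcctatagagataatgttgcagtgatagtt
TRIM41 window: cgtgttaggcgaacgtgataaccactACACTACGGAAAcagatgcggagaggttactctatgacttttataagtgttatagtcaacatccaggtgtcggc

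Linking the 624 windows among themselves gave 9 letter families with 55 windows (8.81%), 7 linked pairs with 14 windows, and left 555 windows (88.9%) linked to no other. When all p300 windows were linked, 98 of the 624 (15.7%, interval 12.9 to 18.8%) fell in a family, compared with 7.13% of windows alone near H3K4me3, 7.06% of partnered-away windows and 7.19% of partnered windows near H3K4me3. The difference from partnered-away windows was 8.65 percentage points (interval 5.79 to 11.9). The same was seen for single repeated runs: 85 of the 624 (13.6%, interval 11.03 to 16.6%) held a 31-letter run found elsewhere in the genome, compared with 6.498% of partnered-away windows, a difference of 7.12 points (4.45 to 10.17). Over all p300 windows the shares were 7.61% for letter families and 5.70% for repeated runs. The p300-only windows therefore held repeated letters more often than each other class of p300 window, with differences of 7.12 to 9.48 points.

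Motifs of the factors that bring p300 to DNA were searched in each window on both strands, and a match is a description of letters, not a bound site. The examples below are the windows with the lowest number in the list for 4 of the motifs, with the match in capitals. Where a window reaches an untranslated region only 30 letters are shown. The ETS match is at chr17:62502339-62502368 in the first exon of DDX5, which encodes an RNA helicase. The AP-1 match is at chr17:75315481-75315580, 69 bp upstream of a start of SEPTIN9, a cytoskeletal GTPase gene. The Myb match is at chr5:180649988-180650087, 243 bp upstream of a start of TRIM41, and the CTCF-like match is at chr5:177631504-177631533, just before the start of HNRNPAB, an RNA-binding protein gene. All are on the plus strand.
DDX5 ETS: agcggAGGAAGgacaccgatgacaccagcc
SEPTIN9 AP-1: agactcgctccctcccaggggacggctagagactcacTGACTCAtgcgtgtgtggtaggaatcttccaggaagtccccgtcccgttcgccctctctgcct
TRIM41 Myb: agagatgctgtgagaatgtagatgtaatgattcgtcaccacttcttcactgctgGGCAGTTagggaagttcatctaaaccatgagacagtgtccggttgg
HNRNPAB CTCF-like: ttataaagggcgCCACGAGTCGGCattgtc

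ETS letters were the most frequent of the 5 motifs in the p300-only windows, though rarer than in partnered-away windows. AGGAAG was held by 193 of 624 windows (30.9%, interval 27.3 to 34.7%), where 25.1% of all p300 windows held it. The share was 11.8% in flanking windows 1000 bp to each side and 9.44% over all 100 bp windows of the genome. Partnered-away windows held it in 50.6%, a difference of -19.7 points (interval -23.7 to -15.4), and windows alone near H3K4me3 in 12.6%, a difference of 18.3 points the other way (14.7 to 22.2). The letters CCGGAA, the ETS form common at promoters, were held by 38 (6.09%), fewer than the 13.3% of windows alone near H3K4me3. PU.1-type letters, GAGGAAGT, which contain AGGAAG and so count in both, were held by 27 (4.33%, all p300 windows 3.22%, flanks 0.401%).

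CTCF-like letters were more frequent in the p300-only windows than in partnered-away windows and in windows alone near H3K4me3. The pattern CC followed after 3 letters by AGNNGGC was held by 58 windows (9.29%, interval 7.13 to 11.9%), where 5.45% of all p300 windows held it and the flanks were at 1.92% and the genome at 0.690%. Partnered-away windows held it in 3.33%, 5.97 points less (3.79 to 8.58), and windows alone near H3K4me3 in 5.14%, 4.16 points less (2.02 to 6.75). Partnered windows near H3K4me3 held it in 7.05% (interval 6.13 to 8.05%), which overlaps the interval of the p300-only windows. With the stricter pattern CCA followed after 2 letters by AGGGGGC there were 7 windows (1.12%, interval 0.452 to 2.30%), none in the flanks, and 0.0802% of partnered-away windows. Of these 7, 6 are shown as 30 letters with the match in capitals. They lie at chr3:47462691-47462720 (plus strand, 116 bp from the start of SCAP), chr19:42924327-42924356 (plus strand, in an intron of LIPE), chr18:12237370-12237399 (minus strand, upstream of CIDEA), chr19:56015553-56015582 (minus strand, in an exon of SSC5D), chr19:47750818-47750847 (minus strand, 8440 bp upstream of CCDC9) and chr16:2892626-2892655 (plus strand, in the pseudogene PRSS30P, with ZG16B the nearest protein-coding gene).
SCAP: accccgtctCCACCAGGGGGCagaagaaac
LIPE: gtcacacggCCAGCAGGGGGCagctccagg
CIDEA: cgcccgcggCCACCAGGGGGCaggcgacac
SSC5D: ccgcctccaCCACGAGGGGGCgctatgggc
CCDC9: tcccactctCCACCAGGGGGCggtgcggcg
ZG16B: acgactctgCCAACAGGGGGCgctgcagga

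Myb and C/EBP letters were rarer than in partnered-away windows. AACNGCC, a Myb consensus, was held by 33 p300-only windows (5.29%, interval 3.67 to 7.35%), compared with 7.3% of all p300 windows, 3.37% of flanks and 10.7% of partnered-away windows, a difference of -5.38 points (-7.35 to -3.03). With CAACTG as the Myb letters the count was 54 (8.65%), a difference of -1.01 points from the partnered-away windows (interval -3.32 to 1.69), and 8 of the 54 were windows of the largest letter family. TTGCNNAA, a C/EBP consensus, was held by 25 (4.01%, interval 2.61 to 5.86%), close to the 4.49% of flanks and the 5.35% of the genome. All p300 windows held it in 4.97% and partnered-away windows in 12.4%, a difference of -8.43 points (-10.3 to -6.21). The single TTGCGCAA match (0.160%) was too rare to compare.

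AP-1 letters, TGANTCA, were also held by 25 windows (4.01%), where 2.73% of all p300 windows, 2.24% of flanks and 3.10% of the genome held them. Partnered-away windows held them in 6.38%, a difference of -2.37 points (interval -4.01 to -0.325). Under 10 alternative settings that interval was without 0 in 4. Nearly all of these matches, 24 of 25, had the form TGACTCA or its reverse complement (flanks 1.28%). The median distance of a match from the summit was 16.5 bp for Myb, 17.5 bp for AP-1, 22 bp for C/EBP, 24 bp for ETS and 25 bp for CTCF-like letters. Only matches inside the 100 bp window were counted. The window thus bounds these distances, and they do not by themselves show centring on the summit.

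Of the other letters searched, Runx letters TGTGGT were in 29 windows (4.65%, all p300 windows 6.66%), below their flanks at 6.01% and the genome at 6.85%, with a difference of -12.5 points (-14.5 to -10.1) from the partnered-away windows, which overlap AML1, AML1-ETO or N-CoR by definition. GATA letters AGATAA were in 27 (4.33%, all p300 windows 1.63%), of which 13 were windows of the largest letter family. Without any family window the GATA count was 13 of 526 (2.47%), a difference of -0.68 points from partnered-away windows without families (interval -1.97 to 1.15). E-box letters CAGCTG were in 58 (9.29%, all p300 windows 7.84%), and the CRE letters TGACGTCA in 1 (0.160%, all p300 windows 0.708%). SP/KLF letters GGGCGG, typical of promoters with many CpG pairs, were in 54 (8.65%, all p300 windows 21.2%), compared with 25.9% of windows alone near H3K4me3.

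**Figure D2:**
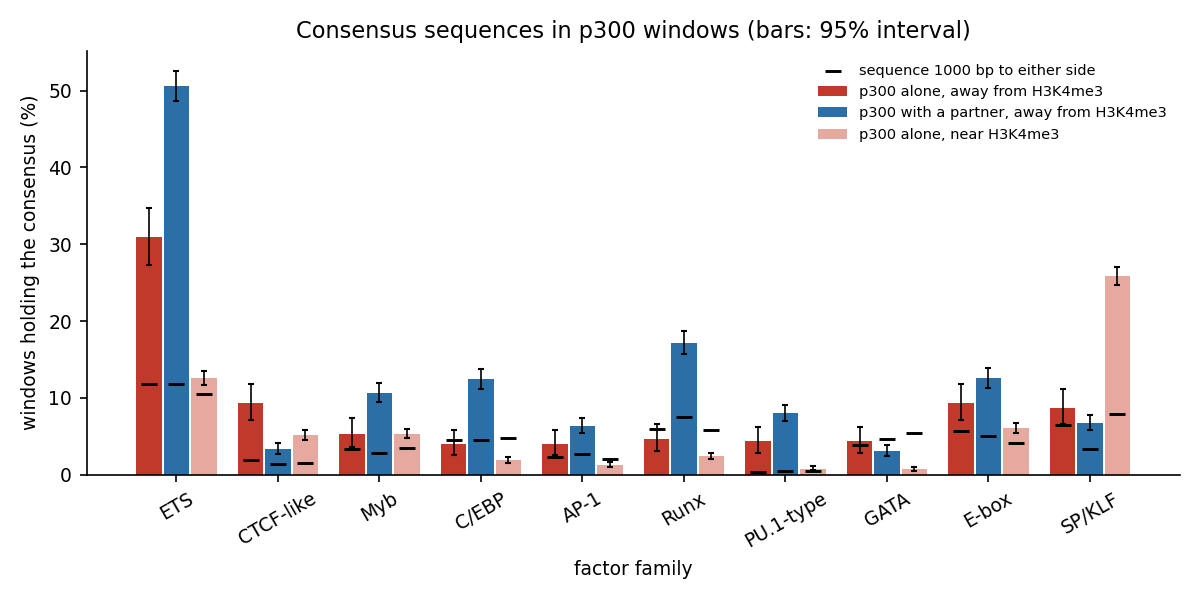
Share of windows (percent) that hold each consensus, for p300-only, partnered-away and alone near H3K4me3 p300 windows, with exact 95% intervals and a black dash for the flanks of the same windows. ETS letters are at 30.9% in p300-only and 50.6% in partnered-away windows, while CTCF-like letters are at 9.29% and 3.33%.

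Of the p300-only windows, 336 (53.8%) held none of the 5 main motifs, compared with 31.8% of partnered-away windows and 76.3% of windows alone near H3K4me3. Partnered windows near H3K4me3 held none in 60.9%, so only partnered-away windows had a lower share than the p300-only windows. A single motif was in 243 p300-only windows, 2 motifs in 44 and more in 1. The pairs were Myb with ETS in 12 windows, ETS with CTCF-like in 9, ETS with AP-1 in 7 and C/EBP with ETS in 6.

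Base composition differed between the classes and moved with the motifs. The median share of G and C was 58% in p300-only windows, 54% in partnered-away windows and 67% in windows alone near H3K4me3, with medians of 2, 2 and 9 CpG pairs. Among windows of 50 to under 60% G and C, ETS letters were in 39.1% of p300-only and 54.1% of partnered-away windows, CTCF-like letters in 5.65% and 2.66%, Myb in 5.65% and 10.8%, and C/EBP in 3.48% and 10.99%. In that range AP-1 letters were in 6.96% and 7.09%, so the lower share of AP-1 over all windows was not seen there. Among windows of 40 to under 50% G and C the AP-1 shares were 1.74% (2 of 115, interval 0.211 to 6.14%) and 5.86% (4.20 to 7.93%). At 60 to under 70% they were 3.37% (7 of 208, 1.36 to 6.81%) and 6.49% (4.56 to 8.92%). The AP-1 share was thus lower in both ranges, but on few windows and with overlapping intervals.

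The p300-only windows were of several kinds with respect to genes. By the centre of the window, 210 (33.7%, interval 30.0 to 37.5%) lay within 1000 bp of an annotated transcription start of any gene, 208 (33.3%) in introns, 51 (8.17%) in exons, 65 (10.4%) within 10 kb upstream of a start and 90 (14.4%) between genes. Over all p300 windows these shares were 71.8%, 15.8%, 2.55%, 4.13% and 5.69%, in the same order. Partnered-away windows were at starts less often than p300-only windows (18.5%) and in introns more often (50.5%). Their shares in exons, upstream and between genes were 5.86%, 10.1% and 15.1%. Of the windows alone near H3K4me3, 94.0% were at starts. The median distance to a start was 2691.5 bp (interval 2085 to 3255), with quartiles at 493.75 and 10113.25 bp, compared with 62 bp for windows alone near H3K4me3 and 5117 bp for partnered-away windows. Only 18 (2.88%) were over 50 kb from any start.

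The annotation mattered to these counts. With protein-coding starts only, 149 windows (23.9%) were within 1000 bp and the median distance was 6031 bp. The 210 windows at starts were split between 108 upstream and 102 at or downstream of the start, with a median of 181 bp, and 109 were within 200 bp. For 105 of the 210 the nearest H3K4me3 summit was over 1000 and up to 2000 bp away, just past the limit of the rule. The H3K4me3 summit lay downstream of the window, in the direction of transcription, in 110 of the 210 (52.4%, interval 45.4 to 59.3%).

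**Figure D3:**
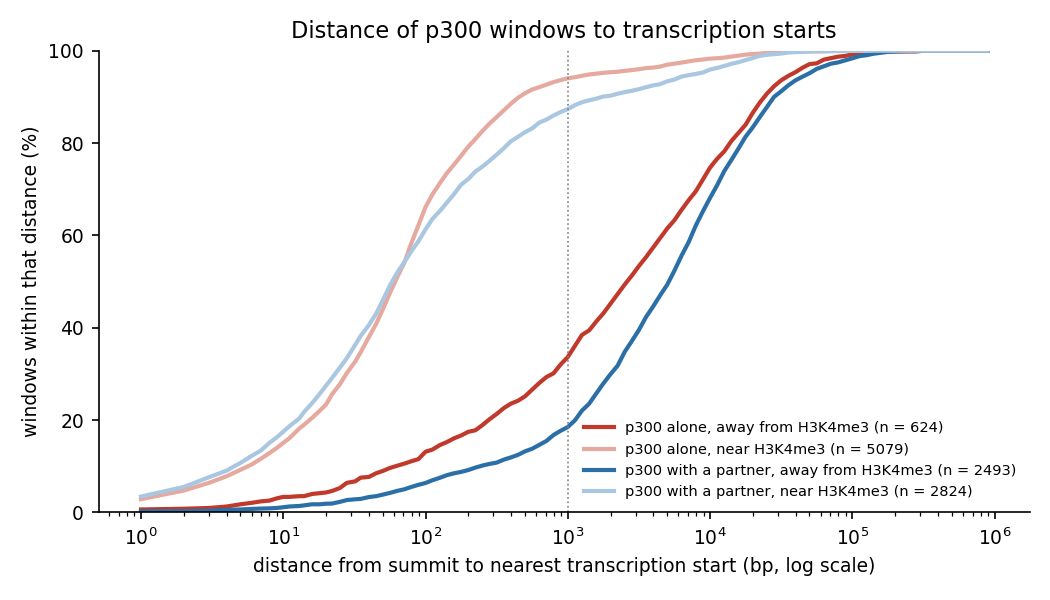
Cumulative share of windows (percent) against the distance of their centre to the nearest annotated transcription start (bp, log scale), one line for each class of p300 window. The median of the p300-only windows, 2691.5 bp, lies between those of windows alone near H3K4me3 (62 bp) and partnered-away windows (5117 bp).

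Windows at starts included genes of blood cells. The window at SOX4, which encodes a factor of progenitor cells, lay 10 bp downstream of the start with an H3K4me3 summit 1045 bp away. AZU1, which encodes the granule protein azurocidin, had a window 39 bp upstream of its start, with H3K4me3 at 1001 bp, the smallest distance the rule allows. The window 6 bp from a start of CDK6, a cell cycle kinase gene, had H3K4me3 at 2046 bp. SELPLG, the selectin ligand of leukocytes, had a window 99 bp downstream of its start with the nearest H3K4me3 summit at 34105 bp. That window lay beside partner summits, with N-CoR at 178 bp and AML1-ETO at 179 bp. MAFG, a partner of the AP-1 and CNC factors, had one 15 bp upstream of a start with H3K4me3 at 3741 bp.

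GFI1, which encodes a zinc-finger transcriptional repressor, had 2 p300-only windows. The first lay 20 bp upstream of the start, 1840 bp from H3K4me3 and 154 bp from both an AML1-ETO and an N-CoR summit. The second lay 20333 bp from the start, 103 bp from AML1, 118 bp from AML1-ETO and 160 bp from N-CoR. The second was thus just past the overlap limit. The same was true of the window in an intron of RXRA, the retinoid X receptor gene, with N-CoR at 104 bp and AML1 at 123 bp, and of the window 86122 bp upstream of IKZF1, the Ikaros gene, with AML1 at 106 bp.

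In the 13 gene lists, 306 genes in all, the blood transcription factors, which are the longest list, took the most p300-only windows. A window counts for a list by its nearest protein-coding gene, with no limit on distance. For the blood transcription factors these were 14 windows (2.24%, interval 1.23 to 3.74%) at 12 of 56 genes, where 1.32% of all p300 windows and 3.33% of partnered-away windows were nearest to one. The interval thus contains the share of all p300 windows. The 12 genes were GFI1 and MEF2C with 2 windows each, and RXRA, SOX4, LYL1, KLF2, STAT5B, IKZF1, ID2, CEBPB, NR4A1 and IRF2. Several of the windows were remote: the CEBPB window lay 93338 bp and the ID2 window 143594 bp from the coding start. The MEF2C windows lay 53598 and 56134 bp from its coding start, at starts of MEF2C-AS2 and LINC00461. The LYL1 window lay in an exon of NFIX. Chromatin regulators had 6 windows (0.962%, all p300 windows 0.426%) at 3 genes, among them DNMT3A (2), the DNA methyltransferase gene, and TBL1XR1, which encodes a subunit of the N-CoR complex. Signalling genes had 3 (0.481%, all p300 windows 0.463%), among them RPS6KA1 and DUSP6, kinase and phosphatase of the MAP kinase pathway. Chemokine and adhesion genes also had 3 (ITGA5, CCR2 and SELPLG), where 0.245% of all p300 windows were nearest to one. The AP-1 family had 2 (BATF and MAFG, 0.321%, all p300 windows 0.181%) and growth factor receptors 2 (TGFBR2 and CSF3R, 0.321%, all p300 windows 0.281%). Granule genes (AZU1), surface markers (CD83) and cell cycle genes (CDK6) had 1 each (0.160%), where all p300 windows were at 0.227%, 0.200% and 0.245%. The lists for NF-kB and its feedback, erythroid and megakaryocyte, T cell and B cell genes had none, but they took only 0.145%, 0.0726%, 0.0544% and 0.0181% of all p300 windows. Apart from the blood transcription factors, the counts were too small to compare with these shares.

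The 624 windows had 578 different nearest protein-coding genes. Of these, 536 had 1 p300-only window, 38 had 2, and 4 had 3, among them TRIM41, RPTOR (the scaffold of mTOR complex 1) and TCIRG1 (a proton pump subunit).

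The 3 RPTOR windows differed in their surroundings. One lay 109 bp from AML1-ETO with H3K4me3 at 1401 bp, while the other 2 had their nearest partner, N-CoR, at 65558 and 6220 bp and H3K4me3 at 65294 and 52372 bp. The TCIRG1 windows were 276 to 1367 bp from AML1-ETO, and their H3K4me3 distances were 3218, 4083 and 1575 bp.

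Many p300-only windows had a partner summit close by without overlap. A summit of AML1, AML1-ETO or N-CoR lay within 150 bp of 68 windows, within 200 bp of 96, within 500 bp of 165 (26.4%), within 1000 bp of 230 and within 10000 bp of 415 (66.5%). Within 500 bp, 130 windows had AML1-ETO, 119 N-CoR and 83 AML1. AML1-ETO was the nearest partner of 289 windows (46.3%), N-CoR of 179 (28.7%) and AML1 of 156 (25%). AML1-ETO also has the longest list, so these shares do not compare the factors. At the edge of the rule, 22 windows had a partner summit within 10 bp past the limit, the closest at 101 bp, and 14 p300 windows away from H3K4me3 were left out with a partner at 90 to 97 bp. For H3K4me3, 40 p300-only windows lay within 100 bp past the limit, from 1001 bp, and 54 windows without partners were left out within 100 bp inside it, up to 997 bp. Another p300 summit was within 1000 bp of 78 windows (12.5%, all p300 windows 11.9%) and within 5000 bp of 234 (37.5%, all p300 windows 26.6%). The share within 1000 bp was thus close to that of all p300 windows.

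**Figure D4:**
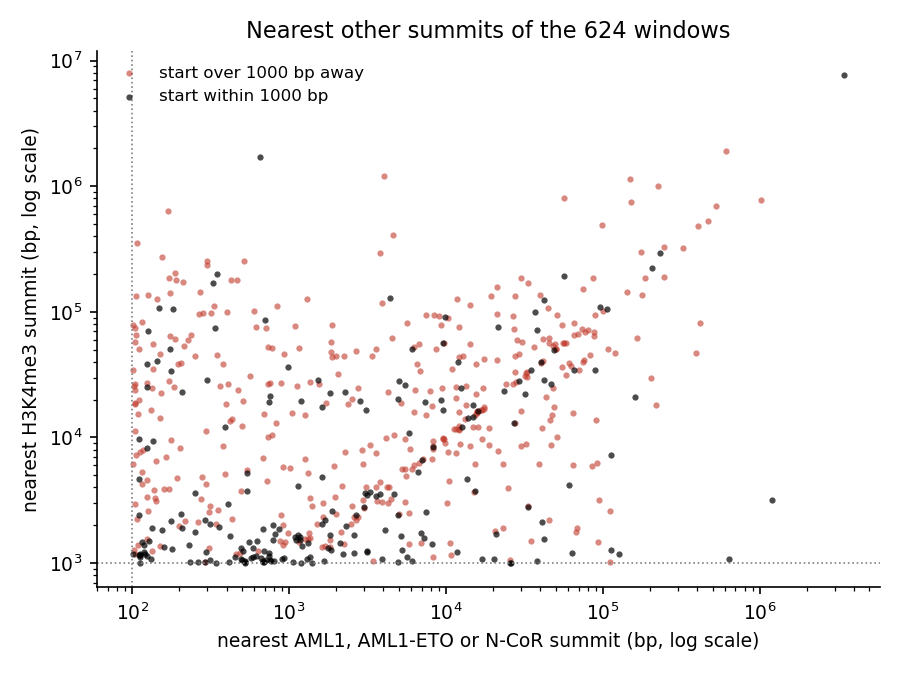
Distance of each of the 624 p300-only windows to the nearest AML1, AML1-ETO or N-CoR summit (horizontal, bp, log scale) and to the nearest H3K4me3 summit (vertical, bp, log scale), with dotted lines at the limits of the rule. Points for windows within 1000 bp of a start are black and cluster at the lower edge, where 105 of 210 have H3K4me3 within 2000 bp.

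Motif letters differed between windows that had a partner summit within 500 bp (165) and the 459 that had none. C/EBP letters were in 7.27% of the former and 2.83% of the latter, a difference of 4.44 points (interval 0.807 to 9.58). AP-1 letters were in 0.606% (1 window) and 5.23% (24 windows), a difference of -4.62 points (-7.11 to -1.40). CTCF-like letters were in 4.24% and 11.1% (-6.87 points, -10.7 to -1.90). ETS letters were in 28.5% and 31.8% (-3.32 points, -11.04 to 5.06), and Runx letters in 4.85% and 4.58%. AP-1 and CTCF-like letters were thus more frequent in windows with no partner nearby, and C/EBP letters in windows beside one. Of the windows without a near partner, the third letter family gave 5 of 24 for AP-1 and 3 of 51 for CTCF-like letters. The partner distance was also part of the rule, but the letters were not.

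Distance to H3K4me3 divided the windows as well. The 146 windows with H3K4me3 at over 1000 and up to 2000 bp held SP/KLF letters in 18.5%, compared with 5.65% of the 478 farther away, a difference of 12.8 points. ETS letters were in 21.2% and 33.9% (-12.7 points, interval -19.95 to -4.26), CTCF-like letters in 4.11% and 10.9%, and C/EBP letters in 0.685% and 5.02%. Of the 146, 71.9% lay within 1000 bp of a start, compared with 21.97% of the 478. SP/KLF letters were likewise in 15.2% of windows at starts and 5.31% of the others (9.92 points, 4.96 to 15.7).

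Chromosome 19, which is dense in genes, held 80 of the windows (12.8%, interval 10.3 to 15.7%), where 8.38% of all p300 windows lay, and more than chromosome 11 with 50 and chromosome 1 with 48. Partnered-away windows were on chromosome 19 in 6.26%, a difference of 6.56 points (3.96 to 9.55). On chromosome 19, AP-1 letters were in 8 of 80 windows (10.0%) and CTCF-like letters in 15 (18.8%), compared with 17 (3.13%) and 43 (7.90%) of the 544 windows elsewhere. Part of this was the third letter family, with 5 of the 8 windows with AP-1 letters and 3 of the 15. ETS letters were in 16 windows (20.0%) on chromosome 19 and 177 (32.5%) elsewhere.

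The p300-only windows stood late in the p300 list. The windows are numbered in file order with no score, and what set that order is not given in the sources used here. The median number was 8011.5 of 11020 (interval 7789 to 8405), compared with 5821 for windows alone near H3K4me3, 5645 for partnered-away windows and 4181.5 for partnered windows near H3K4me3. The first 1102 windows of the list held 16 of them (1.45%) and the last 1102 held 134 (12.2%), with counts that rose at each step between. Whether the order follows peak strength was not tested.

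**Figure D5:**
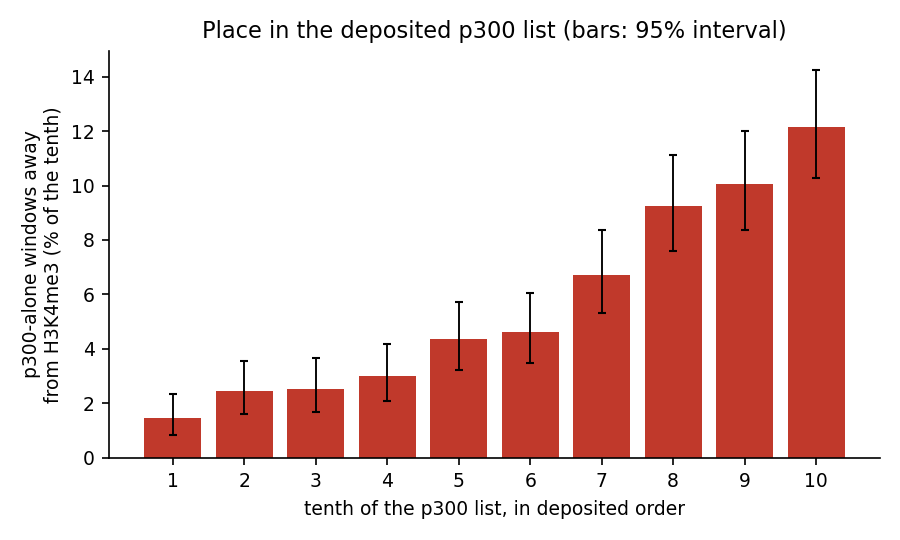
Share of p300-only windows (percent of 1102) in each successive block of 1102 windows of the p300 list in file order, with exact 95% intervals. The share rises from 1.45% in the first to 12.2% in the last.

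Of the 10 p300-only windows with the lowest numbers, leaving out 1 chromosome whose windows are not named here, 8 in order were at or nearest to SMIM27 and TOPORS, DDX5, RPS6KA1, ACAD9, RPTOR, FAM187B, SEPTIN9 and MCAM. The window in SMIM27 and TOPORS was number 267, 28 bp from a start and 1711 bp from H3K4me3. The DDX5 window, number 396, lay 18 bp downstream of its start, 1005 bp from H3K4me3 and 113 bp from AML1. The RPS6KA1 window, number 507, lay 697 bp upstream of a start with all 3 partners at 389 to 409 bp. The ACAD9 window, number 734, belonged to the second letter family. The MCAM window, number 943, lay 2104 bp upstream of the gene for an adhesion molecule, with H3K4me3 at 2120 bp and the nearest partner, AML1-ETO, at 40921 bp.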

How the data were processed

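Chromatin immunoprecipitation sequencing lists for 5 antibodies were used. H3K27me3 and the input control were not analysed here. The deposited files hold positions only, with neither counts nor peak scores. According to the methods and the submitters' processing notes, the authors aligned reads to hg19 (GRCh37) with Bowtie 0.12.8 (base calling with CASAVA 1.6), pooled 2 replicates per antibody, called peaks with MACS2 2.0.10.20131216 at p below 1e-20 and cut windows of 100 bp around summits. Name prefixes in the p300 and H3K4me3 lists read AML1 and those in the N-CoR list read ETO, so the sample labels were used. The lists hold no depth, and the library depths stated by the study were not used here, so no detection floor was set for the counts. A list pooled over replicates also gives no error between replicates.

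Distances were taken between window centres. Starts and gene parts came from GENCODE 44 on GRCh37 (254413 transcripts, 170526 of them protein-coding), with the start class first, then exon, intron, 10 kb upstream and intergenic. Sequences came from the GRCh37 genome. Each consensus was searched on both strands in the 100 bp window, in flanks centred 1000 bp to each side, and in all 100 bp windows of the genome. A repeated run is a 31-letter run found at another place in the genome. Letter families (links by at least 4 shared 14-letter runs, single linkage) were defined after the data were seen. The genes named were the 10 lowest-numbered windows, those with at least 3 windows, list genes, the first window for each motif and the strict CTCF matches. The windows of family 1, 2, 3 and 7 by size were named after their values were seen. Windows of 1 chromosome and a few others are counted but not reported here by name or sequence. The members and lists were chosen with earlier results of these data known. No test was run, because the lists hold no replicates. Alternatives changed the distances, annotation, consensus, search width and part of the list. The division into classes and the search for consensus letters were tested on simulated data. The other steps, among them the linking into letter families, were not. Python 3.11.15 was used with numpy 2.4.6, pandas 2.3.3, SciPy 1.17.1, pysam 0.24.0 and matplotlib 3.10.9.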

Additional observations from a re-analysis of the deposited data

How the results depend on the processing

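No paired analysis was possible because replicates were pooled before peaks were called. Of 111 alternative values, 72 were counted as unchanged. For shares, medians and differences this meant staying within the interval of the reported value. The number of windows has no interval and was judged by a fixed fold limit instead. Only the 50 differences among the 111 values have a direction. None of these reversed, though C/EBP with the other consensus was at -0.000193 points. The difference from partnered-away windows kept an interval without 0 in 10 of 10 alternatives for ETS and CTCF-like letters, in 9 for Myb and C/EBP and in only 4 for AP-1, whose interval also reached 0 without chromosome 5, 10 or 12. The number of windows was 394 with partners kept 1000 bp away, 1423 with H3K4me3 at 500 bp and 152 in the first 5510 places of the list. With H3K4me3 at 500 bp, 67.0% lay at starts (median distance 240 bp, median place 7086), ETS letters were in 21.9% (-24.4 points from partnered-away windows) and CTCF-like letters in 7.10% (3.34 points). With H3K4me3 at 2000 bp, 21.97% lay at starts, with a median of 4722 bp. In those first 5510 places, 42.1% lay at starts (median 1560.5 bp), AP-1 and CTCF-like letters were in 1.97% and 6.58%, and the Myb difference was -8.78 points. A start limit of 500 or 2000 bp gave 25.2% or 45.4%, and coding starts 23.9% with a median of 6031 bp. In 200 bp windows, Myb was in 11.1%, C/EBP 8.49% (-11.4 points), ETS 44.1% (-24.1 points), AP-1 8.01% and CTCF-like 14.1%. With the other consensus, Myb was in 8.65% (-1.01 points), C/EBP 0.160% (-0.000193), ETS 6.09% (-3.06) and CTCF-like 1.12% (1.04). In windows of 50 to under 60% G and C, chosen after seeing the data, the differences were -14.9 points for ETS, -0.136 for AP-1 and 2.99 for CTCF-like letters. The cause of these shifts was not tested. Leaving out each chromosome in turn moved no value outside its interval: starts 32.9 to 35.1%, median distance 2352 to 2826 bp, median place 7962 to 8074, Myb 4.96 to 5.73%, C/EBP 3.42 to 4.24%, ETS 29.7 to 32.5%, AP-1 3.13 to 4.27% and CTCF-like 7.90 to 9.72%, with differences of -5.93 to -4.88, -8.94 to -7.85, -20.8 to -17.8, -3.17 to -2.06 and 4.57 to 6.48 points.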
